A study of Mus musculus with 6 samples.

Results

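The 35 genes described here act in the G2 phase of the cell cycle and in mitosis: kinases and cyclins that start mitosis, spindle checkpoint and kinetochore proteins, spindle motors, and proteins of cytokinesis and chromosome structure. They were chosen by name, and array probes were assigned to them through the RefSeq accession that each probe carries. All 35 were measured, by 54 probes, among 29167 genes and transcripts tested. The 6 arrays held RNA of a mouse line called Lhx2, which resembles blood progenitors and is named for a LIM-homeobox gene. All cells had been cultured with stem cell factor and human interleukin 6 and were kept overnight without serum, with albumin in its place. In 1 group the cells were then exposed for 2 h to 10 ng/ml of the cytokine TGF-β1 (transforming growth factor β1), which the untreated group did not get. Each group held 3 arrays, from 3 independent RNA harvests, and the untreated and treated arrays of a harvest are called a pair. Both groups are a single cell line. The standard errors (SE) below describe how the treated-minus-untreated difference varied between harvests of that line. In them each gene's variance is drawn towards that of the other features.

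Mitosis begins when cyclin B and CDK1 form an active kinase, and it ends after the anaphase-promoting complex (APC/C) marks cyclin B for destruction. The spindle checkpoint holds that complex back until every chromosome is attached to the spindle. Transcripts of most of these genes are low in G1 and accumulate towards G2, so their summed level in a bulk sample is often read as a measure of proliferation. In resting cells many of them are held down by the DREAM complex, which contains E2F4 or E2F5 and a pocket protein, and later in the cycle B-MYB and FOXM1 take its place on the same promoters. This control acts through a cell cycle genes homology region (CHR) and commonly through CCAAT boxes bound by NF-Y. TGF-β is known to slow the cycle of many epithelial and blood progenitor cells, mostly in G1. In bulk RNA such as this, fewer cycling cells and less transcript per cycling cell cannot be told apart.

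The promoters of 5 of the genes are shown because they display both kinds of element and a promoter without them. Each line gives 130 bases before the transcription start and 30 from it on, 5′ to 3′ in the direction of the gene, from the RefSeq promoters of build GRCm38.p6. Capitals mark the CCAAT box (CCAAT, or ATTGG where it lies on the other strand) and the CHR (TTTGAA, or TTCAAA on the other strand).
Cdk1 (chr10:69352883-69353042, reverse strand): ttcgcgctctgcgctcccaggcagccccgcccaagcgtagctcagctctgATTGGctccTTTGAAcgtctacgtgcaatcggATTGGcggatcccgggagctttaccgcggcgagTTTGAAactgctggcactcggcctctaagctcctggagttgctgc
Ccnb1 (chr13:100786457-100786616, reverse strand): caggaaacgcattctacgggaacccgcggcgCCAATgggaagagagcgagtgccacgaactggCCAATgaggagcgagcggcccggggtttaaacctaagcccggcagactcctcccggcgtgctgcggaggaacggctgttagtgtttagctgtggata
Cdc20 (chr4:118437314-118437473, reverse strand): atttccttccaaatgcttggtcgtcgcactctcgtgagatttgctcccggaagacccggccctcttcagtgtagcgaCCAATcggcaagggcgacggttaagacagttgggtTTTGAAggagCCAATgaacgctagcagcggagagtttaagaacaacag
Bub1 (chr2:127831830-127831989, reverse strand): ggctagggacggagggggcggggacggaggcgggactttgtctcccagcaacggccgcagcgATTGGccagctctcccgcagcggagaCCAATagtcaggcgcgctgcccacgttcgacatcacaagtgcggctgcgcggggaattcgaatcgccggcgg
Mad2l1 (chr6:66535091-66535250, forward strand): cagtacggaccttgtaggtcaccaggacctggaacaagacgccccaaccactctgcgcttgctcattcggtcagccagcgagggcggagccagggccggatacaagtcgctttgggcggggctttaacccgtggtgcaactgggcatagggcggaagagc

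The Cdk1 window held 2 CCAAT boxes in reverse orientation and 2 CHR matches, and the Cdc20 window held a CHR between 2 CCAAT boxes. Ccnb1 and Bub1 each had 2 CCAAT boxes and no TTTGAA in either direction, and Mad2l1 had neither element. Windows from 250 bases before to 50 bases after the start were given for 31 of the 35 genes, and Aurkb, Cdc25c, Kif20a and Tpx2 are named only. On both strands, CCAAT occurred in 24 of the 31 (77.4%), against 41.1% of 27025 genes and 37.4% of all 32851 promoter windows. TTTGAA occurred in 22 of the 31 (71.0%), against 20.2% of genes and 17.9% of windows. Both elements occurred together in 20 of the 31 (64.5%), against 7.97% of genes and 6.95% of windows. The E2F site TTTCGCGC occurred in 1, Cdk1, against 0.374% of genes and 0.323% of windows. These shares describe letters in a window and carry no test, and a window without a match says nothing about the factors.

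In the map of these matches, 52 of 53 CCAAT boxes lay before the start and 15 genes had more than 1. Of 26 CHR matches, 19 began within 50 bases of the start on either side. In Cdca8 a CHR and a CCAAT box shared a base, which was the 1 overlap between matches. The 5 genes with neither element were Birc5, Mad2l1, Nuf2, Nusap1 and Plk4. Their log2 changes with TGF-β1, described below, ranged from -0.30 to -0.12, and those of the 20 genes with both elements from -0.20 to 0.062. The 4 genes with CCAAT and no CHR ranged from -0.25 to -0.11, and the 2 with CHR and no CCAAT had -0.072 and 0.020. The 4 genes without a window ranged from -0.18 to -0.00094. These ranges are given without a test.

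**Figure D1:**
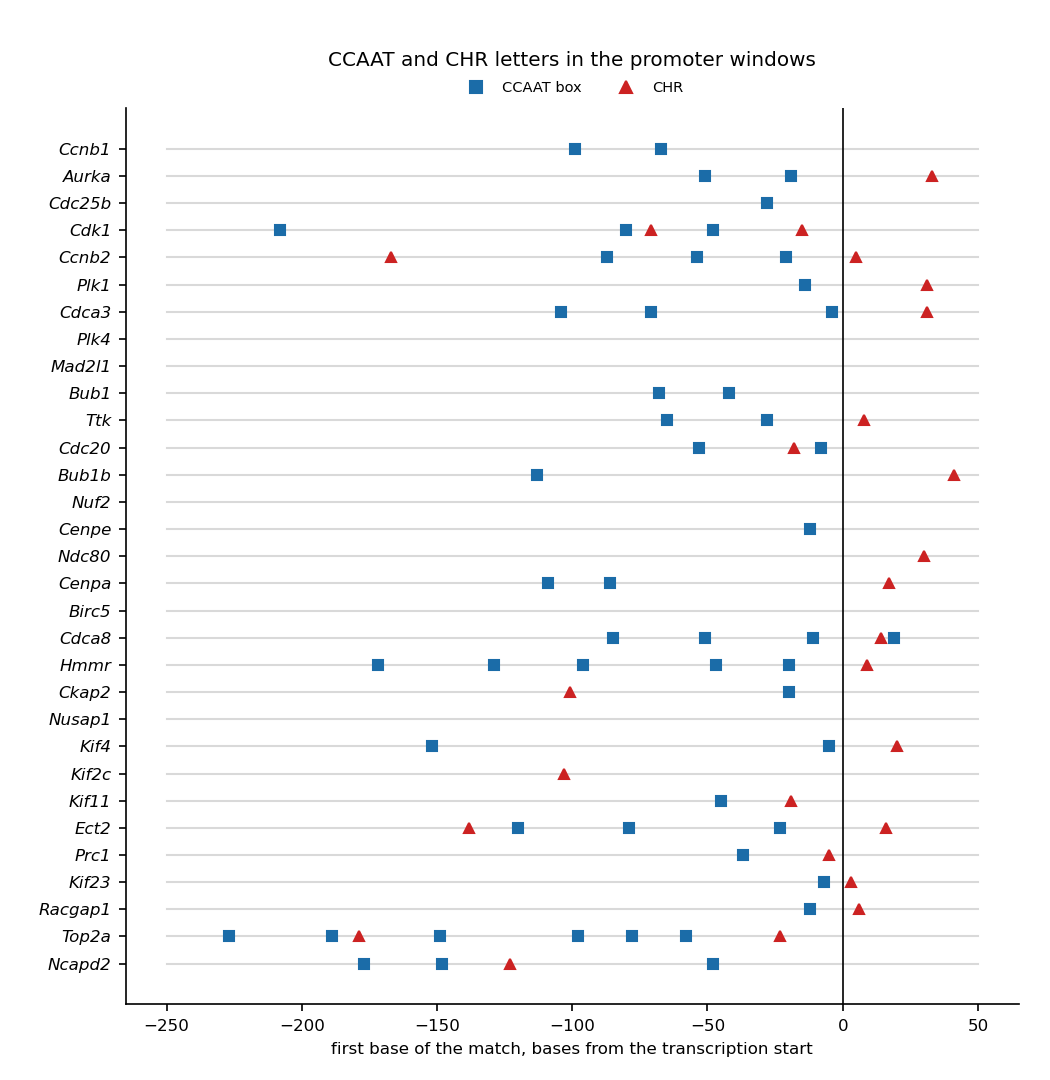
Positions of CCAAT boxes (squares) and CHR letters (triangles) on either strand in the promoter windows of 31 mitosis genes. The x axis gives the first base of each match in bases from the transcription start (vertical line), and each row is a gene, with 1 window drawn where RefSeq gave more. Of the CCAAT boxes 52 of 53 lie left of the start, and the rows of Birc5, Mad2l1, Nuf2, Nusap1 and Plk4 hold no match.

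Signal was compared as log2 of each probe's background-corrected intensity relative to the array's 75th percentile, so 0 is the brightness of a fairly bright probe and a change of 1 is a doubling. That percentile lay between 794.2 and 1031 on the 6 arrays, and 82.9% to 90.3% of probes were well above background. All 35 genes were well above background on every array. The treated arrays carried the TGF-β1 response: Smad7, an inhibitor of TGF-β receptors, rose by 3.56 on the log2 scale (SE 0.10, adjusted p = 0.0074, limma) and Skil, a repressor of SMAD proteins, by 3.46 (SE 0.12, adjusted p = 0.0080), each higher in 3 of 3 pairs. The blood progenitor markers were well above background in 10 of 10 cases on every array, with Mpo, myeloperoxidase, the brightest.

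No G2/M or mitosis gene changed past the threshold after 2 h of TGF-β1. In the paired limma fit 0 of 35 passed an adjusted p of 0.05, where 0.672% of all features did (196, of which 161 were higher and 35 lower). Without the replicate block the count was again 0 of 35, with 0.254% of all features called. At an unadjusted p under 0.05 there was 1 of the 35, the checkpoint gene Mad2l1, against 10.9% of all features. The log2 changes ran from -0.30 for Mad2l1 to 0.062 for the condensin gene Ncapd2, and adjusted p from 0.409 to 0.999. Of the 35 values 28 were negative and 7 positive, with a median of -0.075, and over all features 51.4% were negative with a median of -0.0064.

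The 95% confidence intervals of the 35 genes together spanned -0.58 (Birc5, a 1.49-fold lower level) to 0.41 (Kif11, 1.33-fold higher). Without the block they spanned -0.75 to 0.63, or 1.69-fold lower to 1.55-fold higher. The smallest change that passed the threshold anywhere on the array in the paired fit was 0.93 in size.

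**Figure D2:**
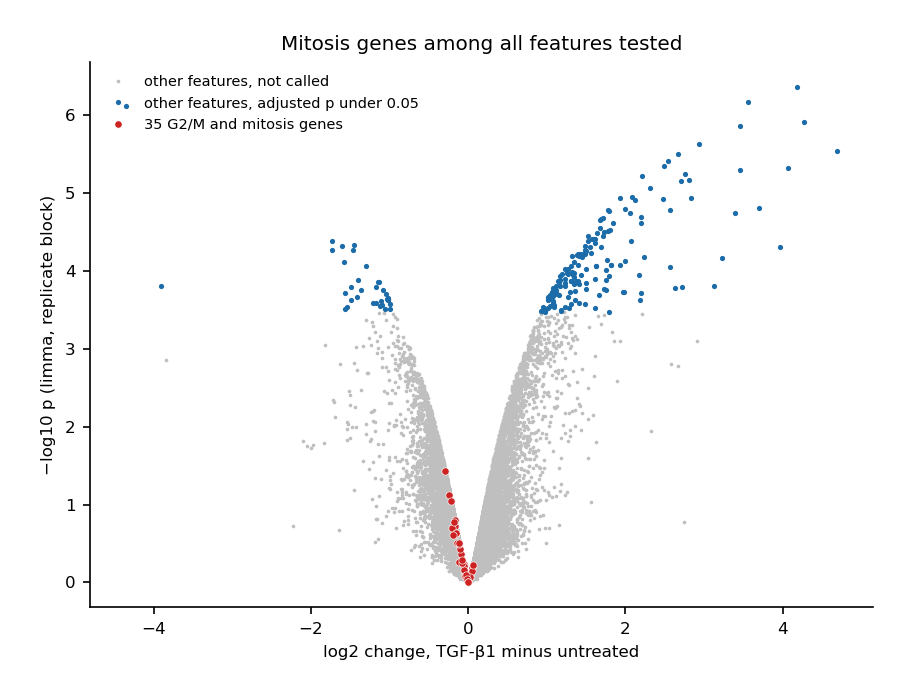
Log2 change with TGF-β1 (x axis) against −log10 of the unadjusted limma p with the replicate block (y axis), 1 point per gene or transcript. The 35 mitosis genes (red) lie between -0.30 and 0.062 at the foot of the plot, and the 196 features past the threshold (blue) start at 0.93 in size.

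The mitotic entry genes, 8 in all, showed changes from -0.17 to 0.030, with 7 negative and 0 past the threshold. Ccnb1, the gene of cyclin B1, had log2 signals of 2.13, 1.70 and 2.31 in the untreated arrays of harvests 1, 2 and 3 and of 1.93, 1.66 and 2.04 in the treated arrays. The treated array was the lower in each pair, but harvest 2 was lowest in both groups and the groups overlapped. The change was -0.17 (SE 0.11, adjusted p = 0.693). Its partner Cdk1, the kinase that drives mitotic entry, had 2.90, 2.66 and 2.91 untreated and 3.08, 2.57 and 2.65 treated. The highest and the lowest of the 6 values were both treated, and the change was -0.056 (SE 0.13, adjusted p = 0.945). Plk1, a kinase needed from entry through cytokinesis, had 3.96, 3.86 and 4.46 untreated and 4.01, 3.91 and 4.27 treated. Harvest 3 was the highest in both groups for Plk1, and the change was -0.029 (SE 0.11, adjusted p = 0.968).

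The remaining entry genes stayed within the same range. Aurka, the kinase of centrosome maturation, had a change of -0.15 (SE 0.13), and its pairs gave -0.028, -0.013 and -0.40, so nearly all of it came from harvest 3. The CDK1-activating phosphatases Cdc25b and Cdc25c had -0.11 and -0.054, each negative in all 3 pairs for the probe used. For Cdc25b another probe went the other way, as given below. Ccnb2, the second B-type cyclin, had -0.031, and Cdca3, which promotes loss of the CDK1 inhibitor WEE1, had 0.030.

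Plk4, the kinase that starts centriole duplication, had log2 signals of 0.18, -0.25 and 0.11 untreated and -0.12, -0.45 and -0.057 treated. Each treated array lay below its own untreated array, while the groups overlapped. The change was -0.22 (SE 0.10, adjusted p = 0.554), the third in size among the negative values.

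The spindle checkpoint genes and Cdc20 held the 2 most negative values. Mad2l1, whose protein MAD2 binds and holds back CDC20, had log2 signals of 2.02, 1.57 and 2.03 untreated and 1.72, 1.34 and 1.68 treated. All 3 pairs were lower with TGF-β1, and untreated harvest 2 lay below treated harvests 1 and 3. The change was -0.30 (SE 0.10, 95% CI -0.57 to -0.026, unadjusted p = 0.037, adjusted p = 0.409), or 1.23-fold lower, and did not pass the threshold. Bub1, a checkpoint kinase that loads other checkpoint proteins on kinetochores, had 2.01, 1.98 and 2.32 untreated and 1.85, 1.77 and 1.95 treated. It was the 1 member whose treated arrays all lay below all untreated arrays, as did 5.05% of all features. Its change was -0.25 (SE 0.11, adjusted p = 0.522), or 1.19-fold lower.

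Cdc20, the APC/C activator that the checkpoint restrains, had log2 signals of 4.92, 4.75 and 5.14 untreated and 4.93, 4.68 and 4.92 treated. The pairs differed in sign and the change was -0.094 (SE 0.11, adjusted p = 0.867). The checkpoint kinase gene Ttk had -0.19 (SE 0.14), with pair values of -0.44, -0.22 and 0.094. Bub1b, which encodes the checkpoint protein BUBR1, had -0.035.

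Among the centromere and kinetochore genes, Cenpa, the histone H3 variant that marks centromeres, had log2 signals of 2.80, 3.03 and 3.13 untreated and 2.79, 3.03 and 3.30 treated. The arrays of pairs 1 and 2 differed by under 0.01, and the change of 0.052 (SE 0.11, adjusted p = 0.935) came from harvest 3. Ndc80 and Nuf2, subunits of the complex that grips microtubule ends, had -0.072 and -0.15, and the kinetochore motor Cenpe had -0.12. These 3 genes were lower in all 3 pairs.

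In the chromosomal passenger complex, which corrects faulty attachments, Aurkb, its kinase, had log2 signals of 2.02, 1.93 and 2.16 untreated and 1.92, 1.90 and 2.10 treated. Its change was -0.059 (SE 0.10, adjusted p = 0.919) and did not pass the threshold. The treated array was the lower in each pair, by -0.093, -0.027 and -0.057 in harvests 1, 2 and 3 (SD 0.033). Birc5, the gene of survivin, had pair values of 0.12, 0.098 and -0.57, the widest spread of the 35, and a change of -0.12 (SE 0.18). Cdca8, the gene of borealin, had 0.0029.

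The 7 spindle genes ranged from -0.20 to 0.052. Kif11, the motor that pushes spindle poles apart, had log2 signals of -0.047, -0.13 and 0.23 untreated and -0.19, -0.17 and 0.56 treated. Treated harvest 3 was the highest of the 6 and pairs 1 and 2 were negative, so the positive change of 0.052 (SE 0.14, adjusted p = 0.953) became -0.090 without harvest 3. Hmmr, a spindle pole protein, had the most negative value of this group, -0.20 (SE 0.14), and Ckap2 and Nusap1, which stabilise spindle microtubules, had -0.16 and -0.12. Kif4, a motor on chromosome arms, had -0.075, Tpx2, the activator of Aurora A, -0.00094, and Kif2c, which takes microtubules apart, 0.020.

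All 5 genes of the spindle midzone and cytokinesis had negative values. Kif20a, a motor that carries the passenger complex to the midzone, had -0.18 (SE 0.11), and Ect2, which activates RhoA at the cleavage site, -0.17 (SE 0.10). Prc1, which crosslinks midzone microtubules, had -0.15 (SE 0.11), and these 3 were lower in all 3 pairs. The centralspindlin genes Kif23 and Racgap1 had -0.035 and -0.015 and mixed pairs.

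Both genes of chromosome structure had positive values. Top2a, the topoisomerase that untangles sister chromatids, had log2 signals of 2.88, 2.68 and 2.87 untreated and 2.94, 2.64 and 2.85 treated, a change of 0.0018 (SE 0.10, adjusted p = 0.999). Ncapd2, a condensin subunit, had 5.45, 5.16 and 5.44 untreated and 5.49, 5.35 and 5.41 treated, a change of 0.062 (SE 0.11, adjusted p = 0.920). For both genes the groups overlapped.

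**Figure D3:**
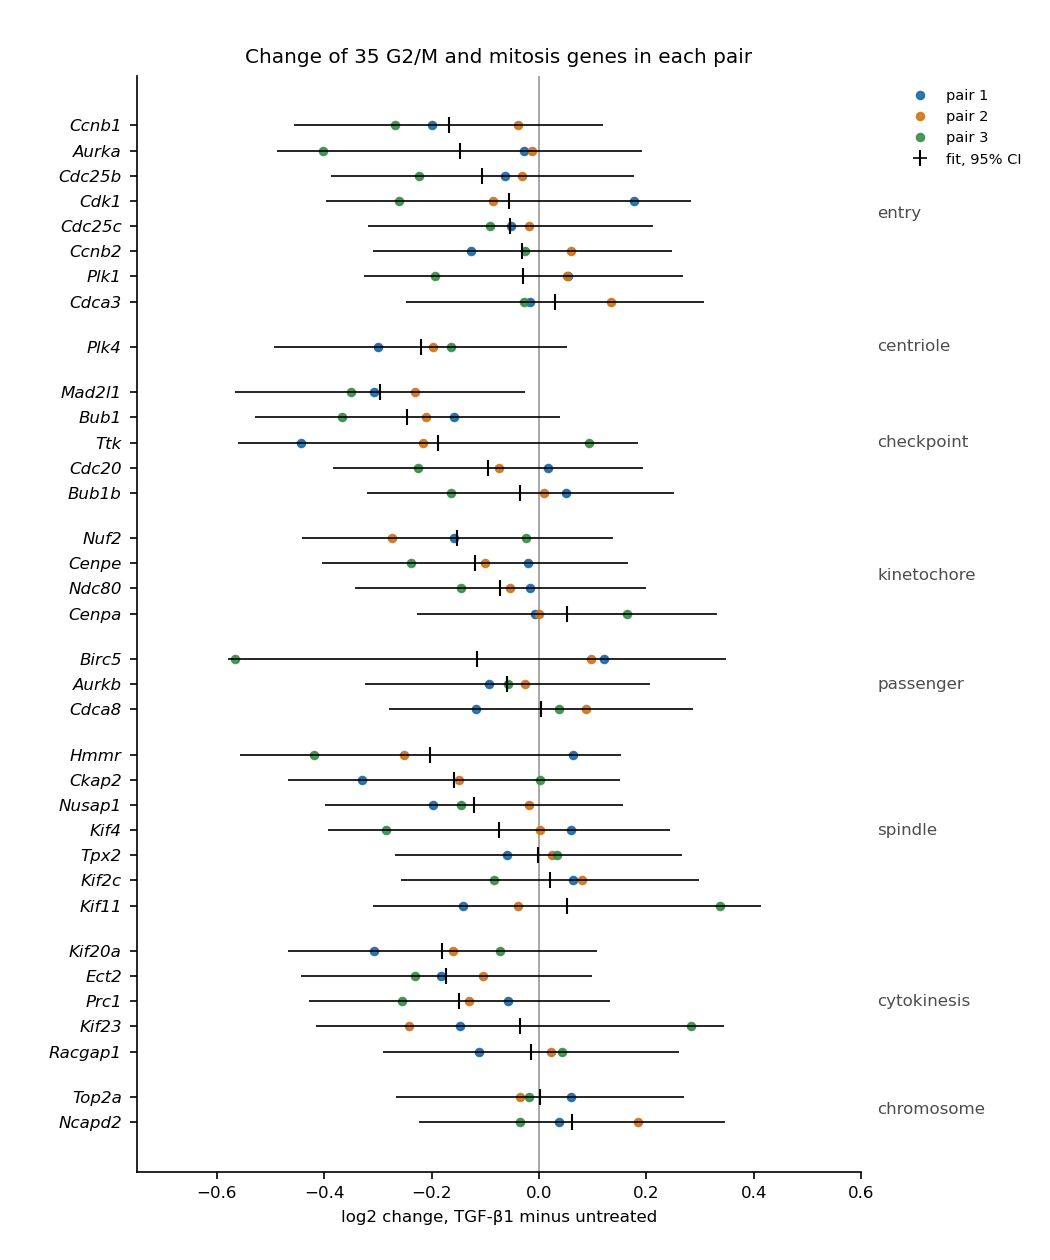
Log2 change of each of the 35 genes (rows, grouped by role) in pairs 1, 2 and 3 (coloured points), with the fitted change and its 95% confidence interval (black). All intervals cross 0 except that of Mad2l1, and in Birc5, Aurka and Kif11 the point of pair 3 stands well apart from the others.

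Counted by pair, 15 of the 35 genes were lower with TGF-β1 in all 3 pairs, where 20% of all features were. None of the 35 was higher in all 3 pairs, where 14.1% of all features were. The median change of the 35 was -0.060 in pair 1, -0.035 in pair 2 and -0.15 in pair 3. Over all features the same medians were -0.066, -0.073 and 0.11, so the genes lay close to the other features in pairs 1 and 2 and below them in pair 3. That distance depended on the scaling. After normexp correction with quantile normalization the 35 had -0.065, -0.068 and -0.032, and all features -0.017, -0.015 and -0.0017.

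The arrays were printed on 2 slides, and contrasts made within a slide gave the 35 genes opposite directions. Slide 1 held untreated arrays 1 and 3 and treated array 1, and slide 2 held untreated array 2 and treated arrays 2 and 3. Within slide 1 the treated array was lower than the mean of the untreated arrays for 32 of the 35 genes, with a median of -0.18 against -0.069 over all features, of which 62.0% were lower. Within slide 2, 8 of the 35 were lower and 27 higher, with a median of 0.075 against -0.041 over all features, of which 57.6% were lower. The sign differed between the slides for 26 of the 35 genes and for 40.7% of all features. All 8 mitotic entry genes and all 3 passenger genes differed in sign between slides. The rise within slide 2 was smaller under the other 3 scalings. There 12 to 15 of the 35 were lower within slide 2, with medians of 0.025 to 0.047 (all features -0.0024 to 0.0030). Within slide 1 the same scalings gave 32 to 33 of the 35 lower, with medians of -0.19 (all features -0.044 to -0.023).

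Ccnb1 was -0.29 within slide 1 and 0.15 within slide 2, Plk1 -0.20 and 0.23, and Kif11 -0.28 and 0.33. Bub1 kept its sign with -0.31 and -0.12, as did Mad2l1 with -0.31 and -0.061. Each of these values rests on 3 arrays and has no test. The within-slide contrasts also set different harvests against each other, since harvest 3 gave its untreated RNA to slide 1 and its treated RNA to slide 2. Pairs 1 and 2 each lay on 1 slide. Pair 1, on slide 1, had 25 of the 35 lower, where 62.0% of all features were. Pair 2, on slide 2, had 23 of the 35 lower, where 63.8% of all features were. The paired contrasts thus had the same direction on both slides, for the 35 as for all features. Over these pairs together 26 of the 35 were lower (63.8% of all features), with a median of -0.044 against -0.071 over all features. With slide as the block 20 of the 35 were lower (62.2% of all features). The median was then -0.045 against -0.057 over all features. In either fit 0 of the 35 were called. Of 29167 features, 67 were called over pairs 1 and 2 and 59 with slide as the block.

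**Figure D4:**
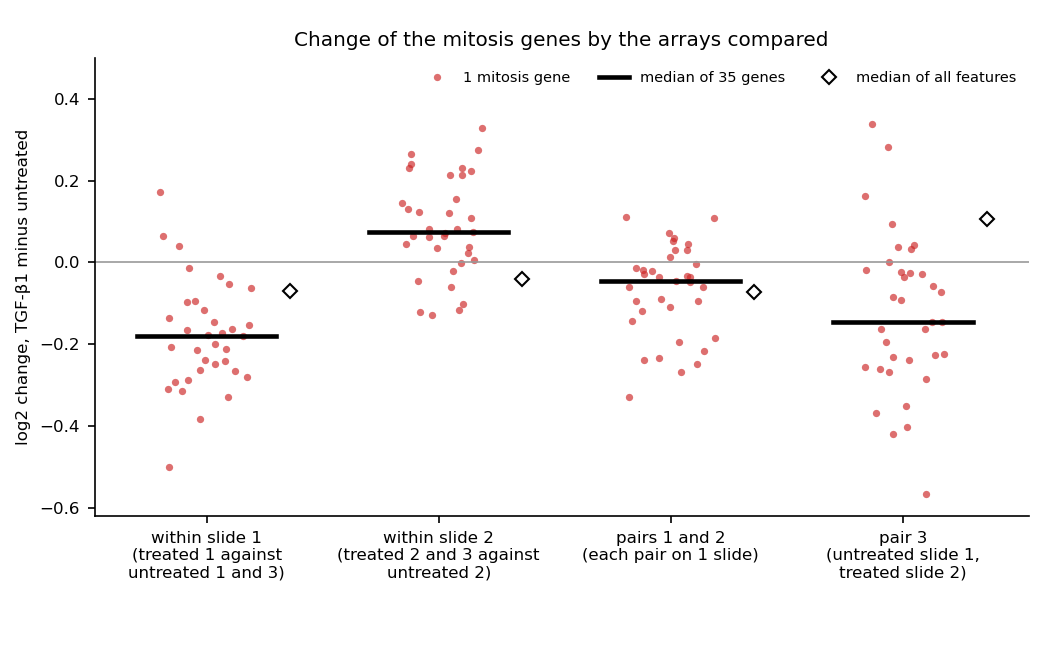
Log2 change of each of the 35 genes (points) within slide 1, within slide 2, as the mean of pairs 1 and 2, and in pair 3, whose arrays lie on different slides. Black lines are the medians of the 35 genes (-0.18, 0.075, -0.044 and -0.15) and diamonds those of all features (-0.069, -0.041, -0.071 and 0.11).

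The levels of these genes also varied between harvests. Averaged over both treatments, harvest 3 was above harvest 2 for 35 of 35 genes, with a median log2 difference of 0.32, against -0.027 over all features. Under the other 3 scalings this median was lower, 0.19 to 0.22, against 0.021 to 0.042 over all features. Harvest 3 was the highest of the 3 harvests for 30 of the 35, against 29.0% of all features, and harvest 2 the lowest for 32 of the 35, against 32.0%. The difference between harvests 3 and 2 ran from 0.12 for Prc1 to 0.55 for Kif11. The 5 genes highest in harvest 1 were Cdk1, Mad2l1, Ncapd2, Plk4 and Top2a.

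By single arrays, both arrays of harvest 3 lay above the other 4 for 16 of the 35 genes, against 8.84% of all features, and both arrays of harvest 2 lay below the other 4 for 21 of the 35, against 13.3%. The median deviation of the 35 from their own means was 0.22 in untreated array 3, where all 35 were above their mean. It was -0.14 in untreated array 2 and -0.19 in treated array 2, where 1 of the 35 was above its mean. The moderated F-test over harvests called 0 of the 35 (adjusted p 0.212 to 0.576), where it called 3.11% of all features. Under the other 3 scalings harvest 3 was the highest for 28 to 29 of the 35 (34.0% to 35.2% of all features), while the number lowest in harvest 2 was 16 to 21 (40.4% to 41.2% of all features).

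**Figure D5:**
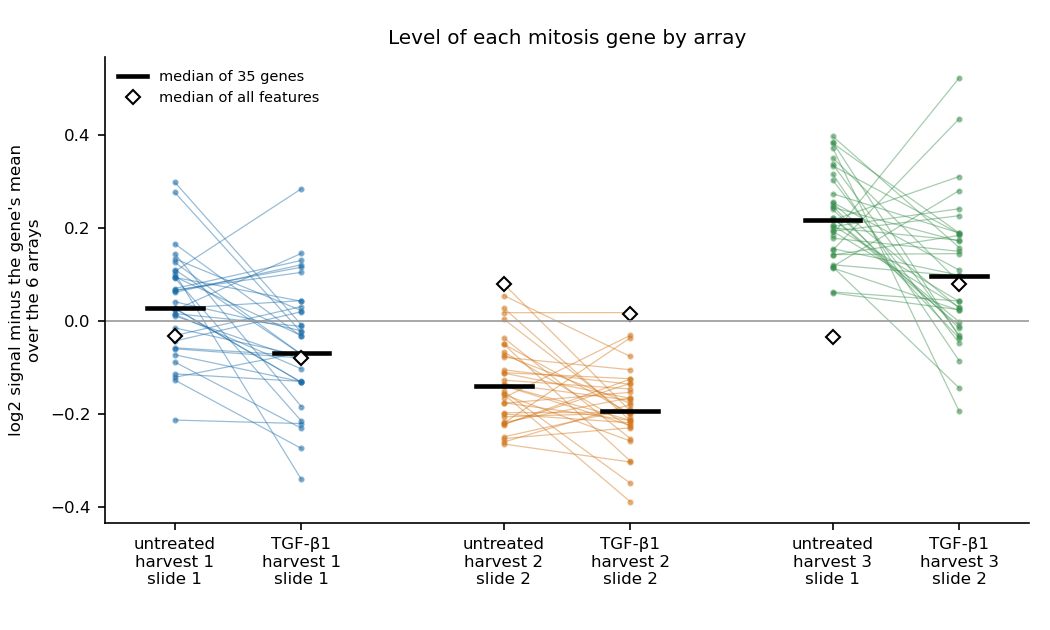
Log2 signal of each of the 35 genes minus its own mean over the 6 arrays (y axis), for the untreated and treated array of each harvest, with lines joining the arrays of a pair. Black bars are medians of the 35 genes and diamonds medians of all features, and the 35 genes lie highest in harvest 3 (0.22 and 0.097) and lowest in harvest 2 (-0.14 and -0.19).

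Markers of other cell types also differed between the harvests. The summed signal of 13 stromal markers (13 well above background on every array, Acta2 the brightest) was 37.0, 83.7 and 19.3 times the 75th percentile in the untreated harvests 1, 2 and 3 and 43.7, 80.6 and 16.0 in the treated ones. The stromal sum was thus highest in harvest 2, and 7 of the 13 markers passed the harvest test. The macrophage and granulocyte sum (7 of 8 markers tested, Lyz2 the brightest) was 164.9, 192.9 and 292.6 untreated and 172.1, 203.9 and 259.8 treated, and 3 of the 7 passed. The mast, erythroid and megakaryocyte sum (7 of 9 tested, Pf4 the brightest) was 96.7, 90.6 and 42.2 untreated and 82.5, 90.7 and 35.3 treated, and 2 of the 7 passed. The lymphoid sum (7 of 8 tested, Il7r the brightest) lay between 1.53 and 2.25, with 6 or 7 of the 7 well above background. Single lymphoid markers varied more: harvest 3 minus harvest 2 ran from -2.65 to 0.46 on the log2 scale. Of the 7, 5 were highest in harvest 2 and 0 passed the harvest test. The blood progenitor sum lay between 528.6 and 609.3. The part of these cell types in the harvest differences of the mitosis genes was not tested.

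Other genes of mitosis were read from a longer list. Of 92 further genes 77 were tested and 0 passed the threshold (background 0.672%), 58 were negative and the median was -0.078. At an unadjusted p under 0.05 there were 4, against 10.9% of all features. The most negative was Anln, the contractile ring scaffold anillin, with -0.53 (SE 0.11, adjusted p = 0.174), and the most positive was Cenpt, a kinetochore linker, with 0.43 (SE 0.11, adjusted p = 0.254). The others, named after their values were seen, were Bora, an activator of PLK1, with -0.49 (SE 0.12), and Cks2, a CDK-binding subunit, with 0.40 (SE 0.12).

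Anln had log2 signals of -1.55, -1.69 and -1.44 untreated and -2.19, -2.23 and -1.86 treated. All its treated arrays lay below all untreated arrays, as did those of 5.05% of all features. Its change was negative within slide 1 (-0.69) and within slide 2 (-0.36). Anln passed the threshold only after normexp correction (-0.39, adjusted p = 0.034), and over the 11 tested alternatives its adjusted p ranged from 0.034 to 0.781. By harvest, 54 of the 77 genes were highest in harvest 3 (29.0% of all features) and 56 lowest in harvest 2 (32.0%). The harvest test was passed by 0 (3.11% of all features). For these genes the highest and lowest harvests were counted in the main scaling only. With normexp Melk, Sgo2a and Spc25, named after their values were seen, passed it (adjusted p = 0.037, 0.028 and 0.024), as did 2060 of 29167 features. With the authors' matrix Sgo2a and Spc25 passed it (0.043 and 0.046), as did 1689 of 29167 features. The adjusted p of these 3 genes reached 0.237 over the alternatives. Mki67 was not analysed here.

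Of the transcription regulators of these promoters, 15 of 16 were tested and 0 passed the threshold, with 9 negative values and a median of -0.099. Foxm1 had -0.099 (SE 0.11, adjusted p = 0.864) and Mybl2, the gene of B-MYB, 0.056 (SE 0.10, adjusted p = 0.926). The DREAM subunits E2f5 and E2f4 had the most negative and the most positive value, -0.40 (SE 0.10, adjusted p = 0.253) and 0.34 (SE 0.17, adjusted p = 0.576). E2f5 was the 1 regulator of 15 at an unadjusted p under 0.05, against 10.9% of all features. E2f5 had log2 signals of -1.75, -1.83 and -1.94 untreated and -2.14, -2.23 and -2.34 treated. All its treated arrays lay below all untreated arrays, as did those of 5.05% of all features.

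Each gene above was read from its brightest probe. Of the 35 genes 16 had further probes, 19 in all, and 14 of these 19 had the sign of the probe used. The other 5 belonged to Cdc25b, Cdca3, Cdk1, Cenpe and Ect2. For Cdk1 the further probe gave 0.18 (SE 0.14) against -0.056, and for Ect2 0.10 (SE 0.11) against -0.17. These further probes of Cdk1 and Ect2 were much dimmer than the probes used. Log2 signals ran from -3.69 to -3.21 for Cdk1, against 2.57 to 3.08 for the probe used. For Ect2 they ran from -3.29 to -2.85, against 2.78 to 3.18. The further probe of Top2a gave 0.29 (SE 0.18) against 0.0018. Both further probes of Ccnb1 were negative, with -0.22 and -0.21. For Cdc25b 1 further probe was not dim, with log2 signals of 1.58 to 1.93, against 1.93 to 2.29 for the probe used. It gave 0.057 (SE 0.10) against -0.11 and was higher with TGF-β1 in each pair. The other, much dimmer probe of Cdc25b gave -0.11.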

How the data were processed

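The scanner files give the spot intensity of 6 1-colour (Cy3) Agilent arrays (design 014868, mouse build mm8). Per the file headers, Feature Extraction 10.1.1.1 subtracted background and detrended the processed intensity within each array, with no scaling between arrays. The authors' deposited matrix holds log2 values that track the raw median spot signal (r of the log2 values 0.99951 to 0.99989, medians 7.38 to 7.42). How it was centred and background-corrected is unknown. The submitters' processing notes name limma.

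Values used were log2 of the processed signal over the array's 75th percentile, averaged over non-outlier spots. Probes well above background on at least 3 of 6 arrays entered. Names came from RefSeq accessions through a table of assembly GRCm38.p6 (23374 of 41174 probes), used for names, and promoter coordinates are of that assembly. A gene was its brightest passing probe. Treated and untreated arrays were compared with limma 3.58.1 (R 4.3.3, lmFit and eBayes) with the replicate number as a block and Benjamini-Hochberg adjustment over 29167 features at 0.05. n is 3 pairs, and this number of arrays limits the precision. Harvests were compared by the F-test of the block terms. The tests were tried on simulated data.

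The harvests are independent per the series design, and same-numbered samples deviated together (r = 0.636, 0.786 and 0.557, against -0.736 to 0.0713 for different numbers), so the number was taken as pairing. Values in every array are given for the 3 greatest rises and 3 greatest falls among the 35 genes and for Ccnb1, Cdk1, Plk1, Aurkb, Cdc20 and Top2a. From the other lists come the largest rise and fall, Foxm1, Mybl2, Smad7, Skil and the brightest marker of each cell type. Bora, Cks2, Melk, Sgo2a and Spc25 fall outside this rule, and per-array values of Anln and E2f5 were added after seeing them. The 35 genes, the lists and the rule were chosen with earlier results of these data known. The alternatives were no block, slide as block, single slides, other scalings (normexp with offset 50 on the median spot signal, always followed by quantile normalization, then quantile normalization without it, and the authors' matrix), other filters on dim probes, the mean of a gene's probes and each pair left out.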

Additional observations from a re-analysis of the deposited data

How the results depend on the processing

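Across the 11 tested alternatives 0 of the 35 genes was called for TGF-β1. The number called among all features, 196 with the replicate block, was 74 with no replicate block, 59 with slide as block, 996 with normexp followed by quantile normalization, 380 with quantile normalization alone, 727 with the authors' matrix, 27 with no filter on dim probes, 372 with probes well above background on all 6 arrays, and 26 to 67 with a pair left out. The cause of these differences was not tested. The fits with a pair left out also held fewer arrays. The median of the 35 genes (-0.075) was -0.18 within slide 1 and 0.075 within slide 2, where 8 rather than 28 of the 35 were lower. That of the further mitosis genes (-0.078) was -0.030 with slide as block and 0.065 within slide 2. Normexp called 1 further mitosis gene (Anln). For harvests it called 2060 of 29167 features, against 906 (3.11%) in the main fit. It also called 3 of the 35 genes, a share not far from that of all features. These were Kif11, Kif23 and Plk1 (adjusted p 0.0456 to 0.0469, and up to 0.339 over the alternatives). The authors' matrix called 1689. Of 455 recomputed changes of single genes under 13 settings 69 changed sign, and 8 genes kept theirs throughout (Bub1, Ect2, Hmmr, Mad2l1, Ncapd2, Nuf2, Plk4 and Prc1). The 2 settings within a slide allowed no test.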
